A study of Mus musculus with 72 samples.

Results

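Impact is an imprinted gene of mouse chromosome 18. The region described here is the stretch of 15 CpGs that the deposited methylation table lists under the feature name Impact, among 224 CpGs of 16 regions. The members are these 15 rows, taken by name alone, and a CpG was used in a library only where at least 50 calls lay on the parental allele. The CpGs run from 12972868 to 12973155 on chromosome 18 of build GRCm38, a span of 288 bases. In the RefSeq table of that build the span lies inside Impact (12954690 to 12992950, gene ID 16210) and overlaps no other gene. Whether it is exonic or intronic is not given in the sources used here.

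Impact encodes a protein that restrains Gcn2, the kinase that slows translation when amino acids run short, and it is known for high levels in neurons. In mice the gene is transcribed from the paternal copy. Its control region carries DNA methylation on the maternal copy, which is laid down in the oocyte and kept through cell division in the tissues of the animal. Bisulfite sequencing reads this mark as unconverted cytosines and does not tell 5-methylcytosine from 5-hydroxymethylcytosine.

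The study addressed the stability of genomic imprints in the brain of aged mice. IMPLICON, an amplicon method for bisulfite-treated DNA, was applied to hippocampus, cerebellum, prefrontal cortex, hypothalamus, nucleus accumbens and, as a control organ, lung of 8 female F1 mice. Old mice 1 and 2 (101 weeks) and young mice 7 and 8 (9 weeks) had a BL6 mother and a CAST father, and old mice 3 and 4 (103 weeks) and young mice 5 and 6 (8 weeks) had a CAST mother and a BL6 father. Reads were assigned to BL6 or CAST, so that each library gives a maternal and a paternal level, and within an age the cross goes with a small difference in weeks. No allele or agent beyond the strain cross is named in the labels. The samples are whole tissue, so cells that differ in methylation and a partial level shared by all cells cannot be told apart.

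The 48 libraries, 1 for each mouse and tissue, held 376 to 461238 calls over the whole table. At CpG 1 of Impact, counting both alleles, they held 2 to 1096 calls with a median of 224.5. The libraries of old mice had a median of 271.5 calls there, and the medians of young mice 5, 6, 7 and 8 were 203.5, 217.5, 193.5 and 46.5 calls. Young mouse 8 had 38 to 73 calls at CpG 1 and reached the minimum on neither allele in any tissue, and the hippocampus library of old mouse 3 had 2 calls. At this minimum every mean level over mice therefore rests on at most 7 mice, 4 old and 3 young. The prefrontal cortex library of young mouse 5 stood apart from the others along the amplicon, and values without it are given beside the results that it moves most.

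The 15 CpGs were not covered alike. CpGs 1 to 6, between 12972868 and 12973000, reached the minimum in 41 libraries on the maternal allele and 39 on the paternal allele. CpG 7 at 12973031 did so in 40 and 37 libraries. CpGs 8, 9 and 10, at 12973033, 12973036 and 12973038, did so in 0 libraries on either allele, with at most 14 calls on an allele in any library. CpGs 11 to 15, from 12973048 to 12973155, did so in 29 libraries on the maternal allele and 16 on the paternal allele. Of the 15 CpGs, 12 thus passed the minimum somewhere, and the level of a library was the mean over the CpGs that passed there, 12 or fewer.

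**Figure D1:**
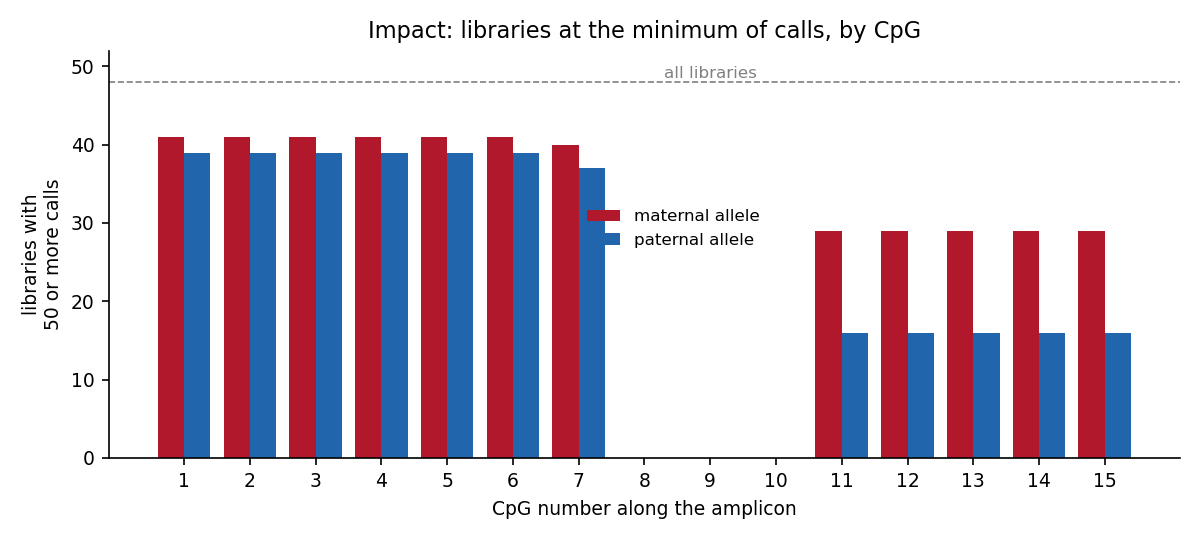
Number of libraries (vertical axis, of 48, dashed line) in which each Impact CpG (horizontal axis) had 50 or more calls on the maternal allele (red bars) or the paternal allele (blue bars). CpGs 1 to 6 reached the minimum in 41 and 39 libraries, CpGs 8 to 10 in 0, and CpGs 11 to 15 in 29 and 16.

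The region was highly methylated on the maternal allele and lowly methylated on the paternal allele in every library that had both values. Over the 7 mice the maternal level was 85.2% ± 2.92 (SD, n = 7) and the paternal level 6.21% ± 1.73 (SD, n = 7), taking each mouse's mean over tissues after setting the tissues to a common mean. Single libraries ran from 67.2% to 91.4% on the maternal allele (41 libraries) and from 0.531% to 13.6% on the paternal allele (39 libraries). The maternal level exceeded the paternal level in 39 of 39 libraries, by 55.1 to 89.7 points. The high allele was the BL6 allele where the mother was BL6 and the CAST allele where the mother was CAST. Here genome 1 of the table was read as BL6; no label names it.

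By tissue, the difference between the alleles was 81.8 points ± 3.89 (SD, n = 5) in hippocampus, with a lowest value of 77.5, a median of 81 and a highest of 87.4. It was 80.4 points ± 5.47 (SD, n = 6) in cerebellum, where the values ran from 72.8 to 86.5 with a median of 82.3. In prefrontal cortex it was 79.8 points ± 10.8 (SD, n = 7), from 59.1 to 89.7 with a median of 81.7. The cortex had the widest spread of the 6 tissues, and young mouse 7 gave its lowest value. In hypothalamus the difference was 77.8 points ± 10.2 (SD, n = 7), from 55.1 to 85.5 with a median of 81.5. In nucleus accumbens it was 77.7 points ± 9.24 (SD, n = 7), from 62.4 to 86.6 with a median of 82.7. In lung it was 77.7 points ± 5.16 (SD, n = 7), from 71.2 to 86.4 with a median of 76.4. No mouse in any tissue came near equal alleles.

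An exact two-sided sign-flip test over mice gave p = 0.0156 in prefrontal cortex, hypothalamus, nucleus accumbens and lung (adjusted over the 6 tissues 0.0234) and p = 0.0312 in cerebellum (adjusted 0.0375). Each is the smallest p that its number of mice allows. Hippocampus, with 5 mice, could not go below the exact p = 0.0625 that it gave. With a minimum of 100 calls 2 to 6 mice were left per tissue, and the maternal allele was the higher in each of them. No tissue could then pass, since each exact p was the smallest that its mice allow (0.0312 to 0.5, adjusted 0.125 to 0.5). Over the mean of the tissues the difference was 79.2 points ± 4.11 (SD, n = 7), from 73.6 to 85.6, with exact p = 0.0156, the smallest possible. CpG by CpG, limma on the within-mouse difference passed an adjusted p of 0.05, over all CpGs of the table, for every Impact CpG tested. These were 12 CpGs each in cerebellum, prefrontal cortex and hypothalamus, where 64% of all CpGs tested passed. They were 7 CpGs each in hippocampus, where 64.3% passed, and in lung and nucleus accumbens, where 62.4% passed. The table also holds regions that are not imprinted, so these shares are the background of a mixed set.

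**Figure D2:**
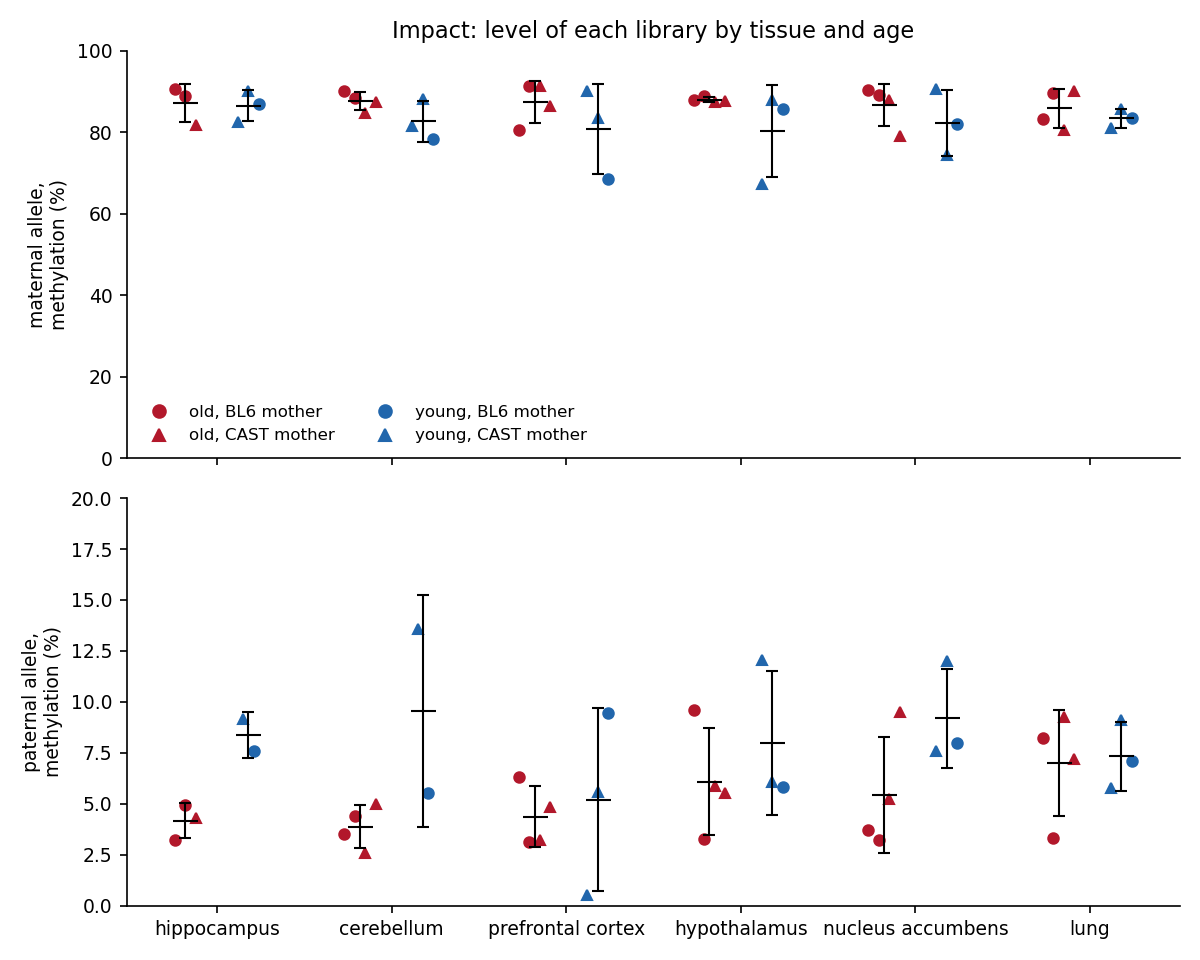
Methylation of Impact in percent on the maternal allele (upper panel, 0 to 100) and the paternal allele (lower panel, 0 to 20) for each tissue; each point is 1 library, coloured by age and shaped by cross, and bars are mean and SD. Maternal levels lie between 67.2% and 91.4% and paternal levels between 0.531% and 13.6%, and the ages overlap in most tissues.

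Counting precision differed among libraries. In the deepest, cerebellum of old mouse 3, 82.6% of 5445 maternal calls were methylated (Wilson 95% interval 81.6% to 83.6%). In the shallowest with a maternal level, nucleus accumbens of old mouse 4, 79% of 390 calls were methylated (Wilson 95% interval 74.7% to 82.7%). Calls at neighbouring CpGs come from the same reads and PCR copies were not marked, so these intervals cover counting error only and are narrower than the true error.

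Along the amplicon the maternal allele was not evenly methylated. The highest CpGs were CpG 11 at 12973048, with 95.5% ± 1.33 (SD, n = 7), and CpG 12 at 12973117, with 94.7% ± 1.41 (SD, n = 7). The lowest were CpG 7 at 12973031, with 63.2% ± 5.48 (SD, n = 7), and CpG 3 at 12972897, with 73% ± 9.41 (SD, n = 7), or 74.5% ± 5.77 without the prefrontal cortex library of mouse 5. Among the CpGs with values, the lowest and the highest maternal CpG were thus next to each other. CpG 7 had values in 40 libraries and CpG 11 in 29, and CpGs 8 to 10, without values, lie between them. The other CpGs had maternal means of 82.3% (CpG 4) to 94.3% (CpG 14).

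Over libraries, maternal CpG 7 ran from 32.1% to 92.5% with a median of 63.8%. It was below CpG 1 in 40 of 40 libraries and was the lowest of the CpGs 1 to 7 in 31. Maternal CpG 3 ran from 1.57% to 95.0% with a median of 75%, was below CpG 1 in 40 of 41 libraries and was the lowest of the CpGs 1 to 7 in 10. One or the other was thus the lowest CpG of that stretch in all 41 libraries. Against the mean of the region in the same library, CpG 7 deviated by -22.1 points (SE 1.30) and CpG 3 by -12.4 points (SE 2.51), with limma adjusted p-values of 2.01e-06 and 0.00281 over all CpG-alleles. Without the prefrontal cortex library of mouse 5 the CpG 3 deviation was -10.7 points (SE 1.21). With a minimum of 200 calls neither deviation passed (CpG 3 -24.7 points, limma adjusted p = 0.0677, and CpG 7 -8.70 points, limma adjusted p = 0.0658). That minimum left maternal values in mice 2, 3, 4 and 5 only. Among these libraries was prefrontal cortex of mouse 5, with 1.57% at CpG 3 and 92.5% at CpG 7. Of the 24 Impact CpG-alleles tested this way, 16 differed from their region's mean at an adjusted p of 0.05, and so did 65.1% of all CpG-alleles in the table (67.1% at an unadjusted p below 0.05), so uneven profiles were common among the regions.

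CpGs 11 to 15 were more methylated on the maternal allele than CpGs 1 to 7 in the same library, in 29 of 29 libraries. The means were 94% ± 1.64 and 83.1% ± 1.96 (SD, n = 7), a difference of 10.9 points ± 2.65 (SD, n = 7; exact sign-flip p = 0.0156, the smallest possible). With CpGs 3 and 7 left out the difference was 5.19 points ± 1.86 (SD, n = 7; exact p = 0.0156) and held in 26 of 29 libraries. The paternal allele had 3.94% ± 0.851 in the later stretch and 3.86% ± 0.985 in the earlier one (SD, n = 5; exact p = 0.812). The stretch difference therefore enters the maternal level of a library through the number of CpGs that passed the minimum. On the maternal allele 18 of 23 libraries of old mice had all 12 CpGs, against 11 of 18 of young mice. On the paternal allele 14 of 23 libraries of old mice had them, against 2 of 16 of young mice.

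On the paternal allele the highest CpGs were CpG 1, with 8.64% ± 1.80 (SD, n = 7), and CpG 2 at 12972872, with 8.10% ± 2.06 (SD, n = 7). The lowest means were those of CpG 13 at 12973131, with 3.87% ± 1.02 (SD, n = 5), and CpG 14 at 12973140, with 3.91% ± 1.16 (SD, n = 5), which rest on fewer mice and libraries. Within libraries this order did not hold. Against the paternal mean of the region, CpGs 13 and 14 deviated by -0.0763 and -0.177 points (limma adjusted p = 0.819 and 0.546). CpGs 4 and 5 deviated by -1.77 and -1.93 points (limma adjusted p = 0.000125 and 0.000299). Paternal CpG 1 was the highest of CpGs 1 to 7 in 21 of 39 libraries and CpG 2 in 10. Paternal CpGs 3 and 7, the counterparts of the low maternal sites, had 6.82% and 6.03%. They deviated from the paternal mean of the region by 0.605 and -0.0693 points (limma adjusted p = 0.0290 and 0.873).

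**Figure D3:**
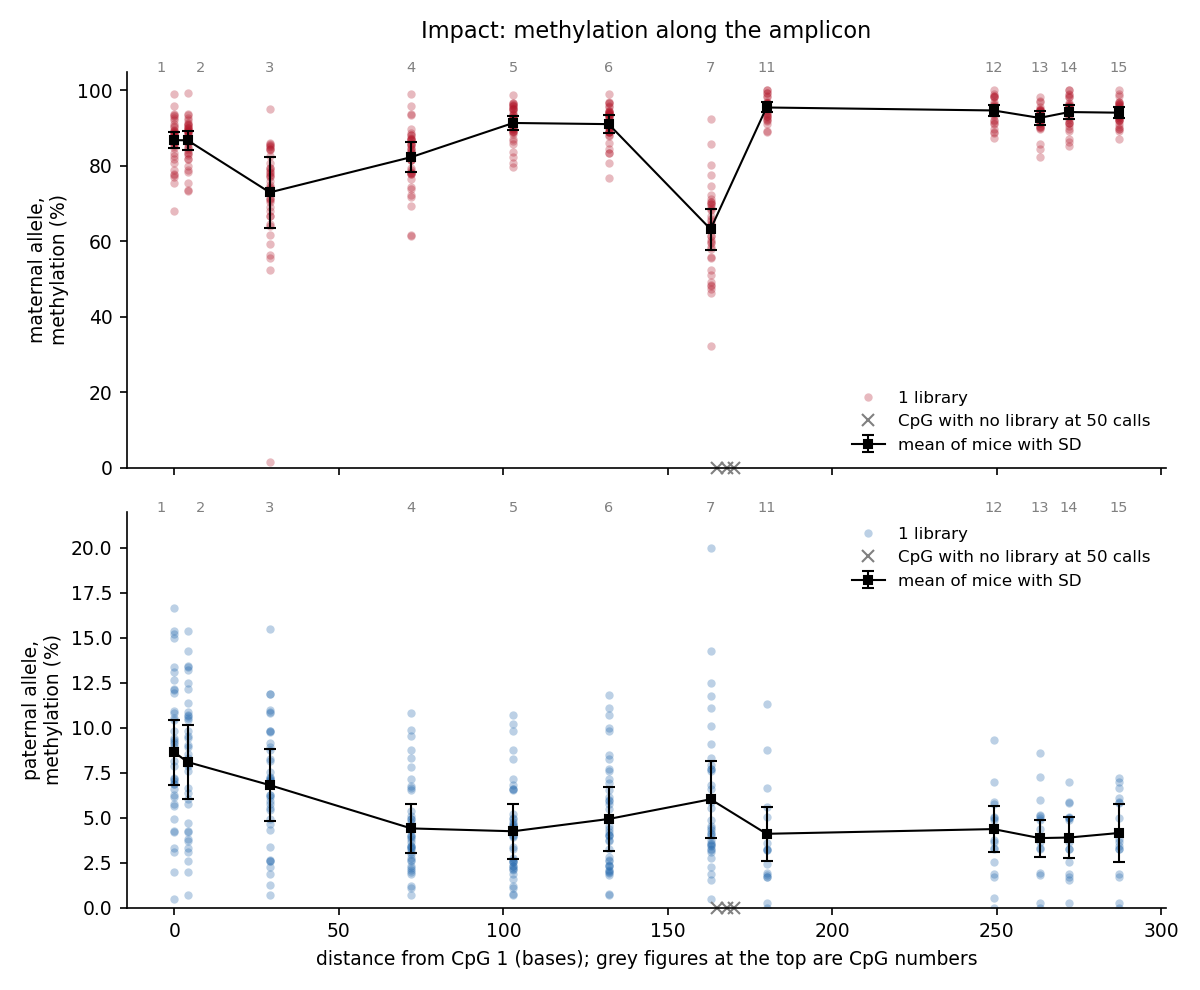
Methylation in percent at each Impact CpG on the maternal allele (upper panel) and the paternal allele (lower panel) against its distance from CpG 1 in bases; points are libraries with 50 or more calls, squares are means of the mice with SD, and crosses on the axis are CpGs 8 to 10, which reached 50 calls in no library. The maternal profile dips to 73% at CpG 3 and 63.2% at CpG 7 and is 82.3% or higher at the other CpGs, and the point near 0 at CpG 3 is the prefrontal cortex library of mouse 5.

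The prefrontal cortex library of young mouse 5 differed from the rest at CpG 3. Its maternal level there was 1.57% of 318 calls (Wilson 95% interval 0.673% to 3.63%), while its maternal CpGs 1, 2, 4, 5 and 6 were at 98.7% to 99.4%. In the other 40 libraries maternal CpG 3 ran from 52.4% to 95.0% with a median of 75.5%. The other tissues of the same mouse gave 52.4% in cerebellum, 84.4% in hippocampus, 56.4% in hypothalamus, 55.5% in lung and 70.5% in nucleus accumbens. The near absence of methylated calls was therefore found in 1 tissue of that animal. Its paternal level of 0.531% was also the lowest, below the 2.57% to 13.6% of the other 38 libraries. Its calls at CpG 11 came to 87.6% of those at CpG 1, against 23.3% to 70.7% in the others, leaving out the hippocampus library of mouse 3.

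Old and young mice were compared to ask whether the imprint drifts with age. Within tissues, no difference passed. On the maternal allele the old minus young difference, fitted with the cross as covariate, ran from -0.883 points in hippocampus to 8.17 points in prefrontal cortex (95% interval -4.18 to 20.5). It was 7.06 points in hypothalamus, 5.08 in cerebellum, 3.59 in nucleus accumbens and 2.30 in lung. On the paternal allele it ran from -5.69 points in cerebellum (95% interval -11.5 to 0.163) to -0.0636 in lung. It was -4.07 points in hippocampus, -3.26 in nucleus accumbens, -1.76 in hypothalamus and -1.33 in prefrontal cortex. The fitted direction was thus higher maternal methylation in old mice in 5 of 6 tissues and lower paternal methylation in 6 of 6. The tissues come from the same mice, so these counts are not 6 separate observations. Maternal hippocampus and paternal lung, the values nearest 0, changed sign under several other settings. Paternal prefrontal cortex did so in edgeR, on a logit scale and without mouse 7, and paternal hypothalamus did so without mouse 5. The 95% interval included 0 in all of these comparisons except the paternal allele in hippocampus (-7.80 to -0.349).

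None of the 12 Impact comparisons passed an adjusted p of 0.05 in limma, where 0.0% of all region-alleles passed in each tissue. Their adjusted p-values lay between 0.386 and 0.987, and 1 of the 12 had an unadjusted limma p below 0.05, the paternal allele in hippocampus. The edgeR test on methylated and unmethylated calls passed 0 of 12 too, with 2 at an unadjusted p below 0.05. That test passed 6.25% of region-alleles in lung and 0.0% in the other tissues. With 2 to 4 mice per group these tests cannot show small shifts.

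In hippocampus the paternal levels were 3.23%, 4.96% and 4.33% in old mice 1, 2 and 4 and 9.17% and 7.59% in young mice 6 and 7. In cerebellum they were 3.52%, 4.38%, 2.57% and 5.00% in old mice 1 to 4 and 13.6% and 5.53% in young mice 6 and 7. In both tissues the paternal values of the ages did not overlap, and with so few mice the exact permutation p was 0.10 in hippocampus and 0.0667 in cerebellum, the smallest each allows. The ages overlapped in the other Impact comparisons by tissue. How many of all region-alleles lacked overlap is not given here, so nothing is read from this separation. In hypothalamus the maternal levels of the 4 old mice lay between 87.4% and 88.8%, while young mice 5, 6 and 7 had 67.2%, 88% and 85.6%. There 1 young mouse was far below the rest and the other two lay near the old mice.

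Over the tissues of each mouse the ages separated. The maternal means were 87.1%, 89.4%, 86.7% and 85.4% in old mice 1 to 4 and 82.2%, 85% and 80.9% in young mice 5 to 7. The paternal means were 5.77%, 3.72%, 5.16% and 6.07% in the old mice and 6.28%, 9.26% and 7.25% in the young mice. The difference between the alleles was 81.3, 85.6, 81.7 and 79.3 points in the old mice and 76.7, 75.7 and 73.6 points in the young mice. Every old mouse lay above every young mouse on the maternal allele and in the allelic difference, and below on the paternal allele, with the nearest old and young mice less than 1 point apart on either allele. The share of all region-alleles that separate the ages in this way is not given here.

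Old minus young, the means differed by 4.46 points on the maternal allele (87.1% ± 1.65 and 82.7% ± 2.11), by -2.42 points on the paternal allele (5.18% ± 1.04 and 7.60% ± 1.52) and by 6.63 points in the allelic difference (82 ± 2.64 and 75.4 ± 1.59; SD, n = 4 and 3). Without the prefrontal cortex library of mouse 5 they differed by 5.10, -2.93 and 8.10 points. Each contrast of 4 with 3 mice gave an exact permutation p = 0.0286 (two-sided), the smallest possible. In a limma fit of the same mouse means over all 20 region-alleles of the table, added after the values were seen, neither Impact allele passed. The maternal difference was 4.42 points (95% interval 0.677 to 8.17, adjusted p = 0.369) and the paternal difference -2.30 points (95% interval -4.88 to 0.290, adjusted p = 0.438). In that fit 0.0% of region-alleles passed, 10.0% had an unadjusted p below 0.05, and of these 1 was maternal Impact.

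**Figure D4:**
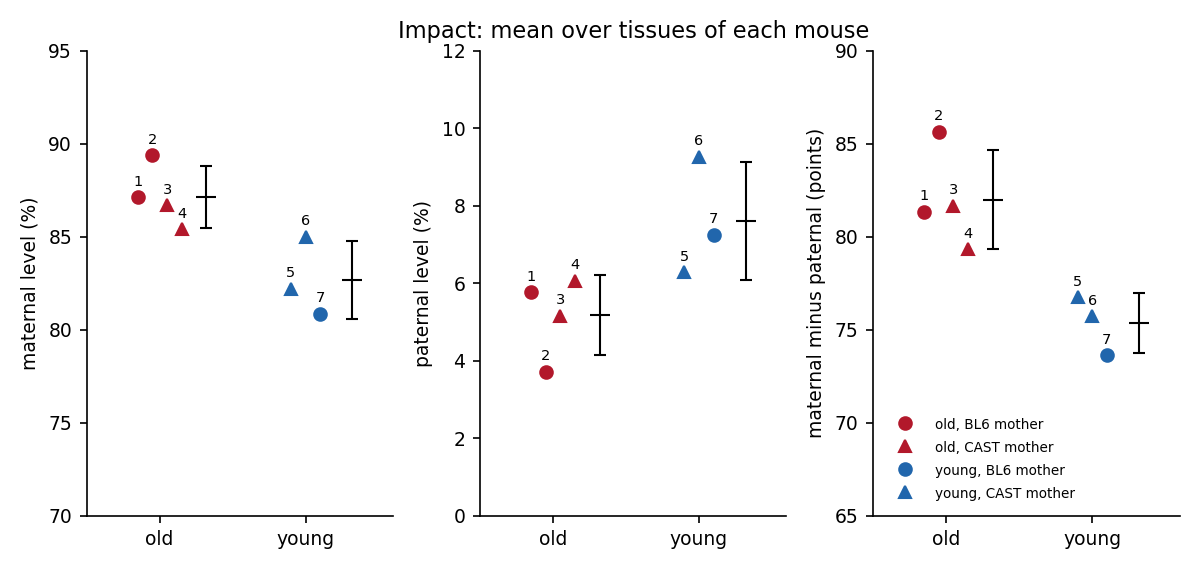
Mean over tissues of each mouse (points, numbered by mouse, shaped by cross) for the maternal level, the paternal level and their difference, with mean and SD of the 4 old and 3 young mice; the vertical axes of the left and right panels do not start at 0. The 4 old mice lie at 85.4% to 89.4% on the maternal allele and the 3 young mice at 80.9% to 85%.

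The age contrast moved with the number of calls. Over libraries the maternal level was higher where the median calls per CpG were higher (Spearman 0.473, 41 libraries of 7 mice) and the paternal level lower (Spearman -0.536, 39 libraries). Within CpGs 1 to 6 alone, which avoids the stretch difference, the coefficients were 0.139 and -0.526. The libraries share mice and tissues, so these are descriptions. With a minimum of 20 calls in place of 50, mouse 8 entered with a maternal mean of 69% and a paternal mean of 16%. Both lay beyond every other mouse. They are plain means over the tissues with a value, without setting the tissues to a common mean. The maternal mean rests on cerebellum, hippocampus and prefrontal cortex, and the paternal mean on every tissue except cerebellum. At this minimum only hippocampus and prefrontal cortex of mouse 8 had both alleles, so its allelic difference rests on those tissues. The contrasts then were 7.23, -6.33 and 13.3 points for the maternal level, the paternal level and the difference (each exact permutation p = 0.0286, with 4 young mice). The paternal difference passed in the limma fit (adjusted p = 0.0443). How many of all region-alleles passed in that fit is not given here, so nothing is read from that pass. With a minimum of 100 calls the contrasts were 3.12, -0.462 and 2.72 points (exact permutation p = 0.114, 0.457 and 0.314). Over the CpGs that most libraries cover on both alleles they were 4.13, -2.22 and 6.99 points (exact permutation p = 0.0857, 0.0857 and 0.0571). Over CpGs 1 to 7 alone, a setting chosen after seeing the data, they were 4.44, -2.38 and 7.09 points (exact permutation p = 0.0286, 0.0857 and 0.0286). Without mouse 6 the paternal contrast was -1.45 points (exact permutation p = 0.200, where 0.0667 is the smallest possible). The part of call depth in the age contrast was not tested, and depth and age cannot be told apart in these mice.

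**Figure D5:**
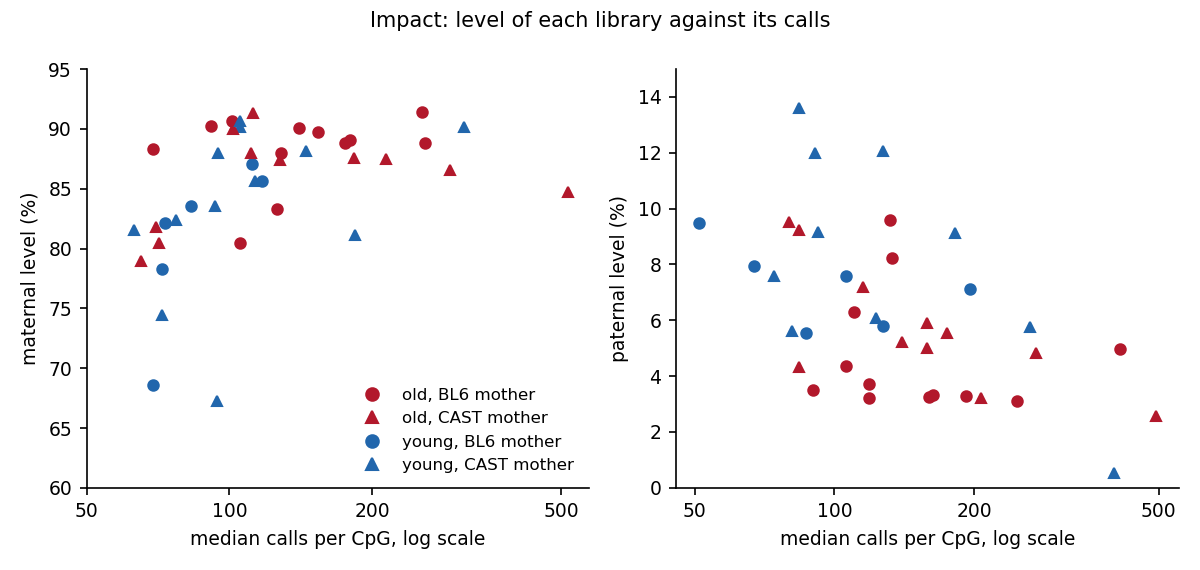
Level of each library in percent against the median calls per CpG on that allele (log scale), maternal allele left and paternal allele right, coloured by age and shaped by cross; neither vertical axis spans 0 to 100. The 5 lowest maternal levels, from 67.2% to 79%, all lie below 100 calls, and 4 of these libraries are from young mice.

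By CpG, no Impact CpG-allele passed the age test in any tissue at an adjusted p of 0.05 in limma (0 of 104 tests, against 0.0% of all CpG-alleles in each tissue), and 10 had an unadjusted p below 0.05. The table-wide share at that level ran from 0.976% in hypothalamus to 12.2% in lung. The largest differences per tissue were on the maternal allele except in nucleus accumbens. In lung CpG 3 had 69% to 82.6% in old mice and 55.5% to 64% in young mice. These ranges did not overlap, and the share of all CpG-alleles without overlap is not given here. The fitted difference at CpG 3 in lung was 17.7 points, with a 95% interval of 8.54 to 26.9 (limma adjusted p = 0.298). When mouse 8, which has no Impact value, was left out of the table-wide fit, this adjusted p was 0.0231 and that of maternal CpG 2 in lung was 0.0392. In cerebellum CpG 7 had 69.8% to 85.8% in old mice and 57.9% to 66.7% in young mice, which the fit put at 13.7 points with a 95% interval of 3.05 to 24.3 (limma adjusted p = 0.429). In prefrontal cortex CpG 3 differed by 37.9 points (95% interval -7.14 to 82.9), and by 18.5 points (5.26 to 31.8, limma adjusted p = 0.222) without the library of mouse 5.

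The remaining largest differences were 10.8 points at maternal CpG 4 in hypothalamus, 7.75 points at maternal CpG 7 in hippocampus and -5.80 points at paternal CpG 2 in nucleus accumbens, with limma adjusted p-values of 0.747, 0.993 and 0.939. Over the tissues of a mouse, all CpGs 1 to 7 had a higher mean in old mice on the maternal allele (old minus young 0.720 to 12.4 points) and a lower one on the paternal allele (-2.95 to -1.34 points). Without the prefrontal cortex library of mouse 5 these ranges were 1.45 to 8.54 and -3.52 to -1.94 points. CpGs 11 to 15 had no common direction, with 2 of 5 higher in old mice on the maternal allele and 4 of 5 on the paternal allele. That count rests on 1 library, since without prefrontal cortex of mouse 5 it was 4 of 5 on the maternal allele and 0 of 5 on the paternal allele. The paternal counts set 4 old mice against 1 young mouse. That was mouse 5, by prefrontal cortex and lung, or by lung alone once prefrontal cortex was left out. None of the 19 CpG-alleles tested over tissues passed in limma (0.0% of all did), and 2 had an unadjusted p below 0.05, beside 8.3% of all CpG-alleles.

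Among tissues the Impact levels were close. In order of the maternal mean they were hippocampus with 86.8% ± 3.85 (SD, n = 6), cerebellum with 85.5% ± 4.23 (n = 7), lung with 84.8% ± 3.84 (n = 7), nucleus accumbens with 84.8% ± 6.34 (n = 7), hypothalamus with 84.7% ± 7.75 (n = 7) and prefrontal cortex with 84.6% ± 8.18 (n = 7). No neighbours in this order differed beyond their spread within mice, since the mean differences were at most 1.17 points with exact sign-flip p-values of 0.531 to 1.00. On the paternal allele the means fell from lung with 7.15% ± 2.08 (n = 7) and nucleus accumbens with 7.03% ± 3.18 (n = 7) through hypothalamus with 6.90% ± 2.94 (n = 7), hippocampus with 5.86% ± 2.45 (n = 5) and cerebellum with 5.77% ± 3.98 (n = 6) to prefrontal cortex with 4.73% ± 2.84 (n = 7). Neighbours did not differ beyond their spread here either (exact sign-flip p = 0.688 to 1.00). In the 5 mice with both tissues hippocampus minus cerebellum was -0.549 points, against the order of the means.

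Against lung, the brain areas differed by -0.267 to 1.89 points on the maternal allele and by -2.42 to -0.113 points on the paternal allele. None of these 10 comparisons passed in limma, where age and cross entered as terms, and none had an unadjusted p below 0.05. Of all region-alleles 16.7% passed in cerebellum, 5.88% in hippocampus, 27.8% in hypothalamus and in nucleus accumbens, and 0.0% in prefrontal cortex. The largest was paternal prefrontal cortex, at -2.42 points (95% interval -5.49 to 0.643, limma adjusted p = 0.283) and lower than lung in 6 of 7 mice. The widest interval, for maternal prefrontal cortex, ran from -7.0 to 6.47 points. By CpG, 0 of 95 tests passed in limma and 8 had an unadjusted p below 0.05, beside table-wide shares past the threshold of 9.42%, 8.88%, 15.2%, 21.1% and 0.0% in the same order of areas. The shares with an unadjusted p below 0.05 were 16.6%, 20.1%, 22.9%, 29.6% and 11.2%. The largest CpG difference was 8.96 points at maternal CpG 3 in hippocampus (95% interval -0.701 to 18.6, limma adjusted p = 0.266).

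In the other areas the largest CpG differences from lung were 7.85 points at maternal CpG 7 in cerebellum (limma adjusted p = 0.361), 7.09 at maternal CpG 3 in hypothalamus (0.368), 6.69 at maternal CpG 14 in nucleus accumbens (0.108) and -4.37 at paternal CpG 1 in prefrontal cortex (0.418). Whether the age effect differed between a brain area and lung was tested on the within-mouse difference. None of the 10 Impact comparisons passed in limma and none had an unadjusted p below 0.05, beside 6.25% of region-alleles past the threshold in hippocampus, hypothalamus and nucleus accumbens and 0.0% in cerebellum and prefrontal cortex. Without mouse 1 the maternal comparison in hippocampus passed, at -8.23 points (limma adjusted p = 0.00173). By CpG 0 of 85 passed and 7 had an unadjusted p below 0.05, where 4.39% to 14.5% of all CpG-alleles did, while 6.83%, 7.8% and 8.5% of all CpG-alleles passed in hippocampus, hypothalamus and nucleus accumbens and 0.0% elsewhere.

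The reciprocal crosses separate the parent of origin from the strain of the allele. Over tissues the maternal level was 85.8% ± 4.40 (SD, n = 3) where it lay on the BL6 chromosome and 84.8% ± 1.90 (SD, n = 4) where it lay on the CAST chromosome, and the ranges overlapped (80.9% to 89.4% and 82.2% to 86.7%; exact permutation p = 0.686). The paternal level was 5.58% ± 1.77 (SD, n = 3) on the CAST chromosome and 6.69% ± 1.78 (SD, n = 4) on the BL6 chromosome (exact permutation p = 0.457). In limma none of the 12 comparisons by tissue passed and none had an unadjusted p below 0.05, beside 0.0% of region-alleles in each tissue. By CpG 0 of 104 passed (0.0% of all in each tissue) and 3 had an unadjusted p below 0.05, where 0.0% to 15.5% of all did. The mother's strain thus left no detectable difference at this depth.

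Maternal CpG 3 had the largest cross difference over tissues. It was 78.3% ± 4.77 (SD, n = 3) on BL6 and 69% ± 10.6 (SD, n = 4) on CAST (limma adjusted p = 0.916). Without the prefrontal cortex library of mouse 5 the CAST mean was 71.7% ± 5.15 (SD, n = 4; limma adjusted p = 0.540).

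Summed over the tissues of a mouse, both alleles were recovered in similar numbers. At CpG 1 the maternal allele held 43.5% to 50.9% of a mouse's calls, with a mean of 47.4% ± 2.89 (SD, n = 8). Single libraries varied more, from 28.6% in hypothalamus of mouse 8 to 71.3% in hippocampus of mouse 5, leaving out the hippocampus library of mouse 3 with its 2 calls. In lung the 4 young mice had 31.6% to 40.7% and the 4 old mice 45.8% to 50.6%, without overlap, and the part of this in the lung levels was not tested. Over tissues the share did not differ between the crosses beyond the spread of the mice (46.4% with a BL6 mother and 48.4% with a CAST mother, exact permutation p = 0.286). The BL6 allele held 46.4% in one cross and 51.6% in the other (exact permutation p = 0.0857).

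Impact was set beside the other maternally methylated regions with values in most mice, Commd1, Plagl1, Gnas and H13, in the libraries where both regions had a value. Of the 12 comparisons none passed an adjusted p of 0.05 by the exact sign-flip test over 7 mice. The smallest exact p for 7 mice is 0.0156, which passes after adjustment over 12 only where several comparisons are at or near it. With a minimum of 100 calls 6 of the 12 passed, and with Impact taken by its first 7 CpGs 5 did. Impact minus the other region, the maternal level differed by -5.58 points ± 4.84 (SD, n = 7) from Commd1 and by -5.44 points ± 2.29 (SD, n = 7) from Plagl1, the gene of a zinc finger transcription factor. Impact was the lower in 6 of 7 mice against Commd1 and in 7 of 7 against Plagl1 (exact p = 0.0312 and 0.0156, adjusted 0.0625 for both). Against Gnas, which encodes a signalling G protein subunit, the maternal difference was 4.56 points ± 4.84 (SD, n = 7) and against H13, the gene of signal peptide peptidase, it was -0.741 points ± 2.35 (SD, n = 7) (exact p = 0.0469 and 0.422, adjusted 0.0703 and 0.460).

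The paternal level of Impact differed by -5.82 points ± 3.11 (SD, n = 7) from Gnas and by -3.82 points ± 3.31 (SD, n = 7) from H13 (exact p = 0.0156 and 0.0312, adjusted 0.0625 for both). It differed by 0.940 points from Commd1 and by 1.01 points from Plagl1 (exact p = 0.219 and 0.656). The Plagl1 value rests on 1 library, since it was 3.39 points without prefrontal cortex of mouse 5 (adjusted exact p = 0.0469), and it was -0.00861 with a minimum of 100 calls. The allelic difference of Impact, minus that of the other region, was -7.14 points for Commd1, -6.51 for Plagl1, 11.6 for Gnas and 3.81 for H13. Their adjusted exact p-values were 0.0625, 0.0703, 0.0625 and 0.262. The mean of Impact thus lay within the range of these 4 regions on both alleles. Leaving out 1 library, prefrontal cortex of mouse 5, put 8 of the 12 below 0.05 (each adjusted exact p = 0.0469), with differences of the same sign. For the allelic difference against Commd1 the value was -7.14 points with and without that library. There only the adjustment over the 12 comparisons changed. The 4 regions hold 11 to 19 CpGs each.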

How the data were processed

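IMPLICON libraries (bisulfite conversion, 2 rounds of PCR, paired-end sequencing, no molecular identifier mentioned) were sequenced from 8 mice and 6 tissues, per the labels' protocols. The submitters' processing notes name bcl2fastq 2.20, Trim Galore 0.6.6, Bismark 0.14.4 and build GRCm38. The authors deposited the methylation of each CpG on each strain's allele as a percent, beside the count of calls behind it. The labels hold 72 samples, of which 48 have columns in the table and 24 are not used here.

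A CpG needed 50 calls on the allele, and a library's level was the mean over its CpGs. Differences were tested with limma 3.58.1 on the percent of all regions or CpGs of the table (R 4.3.3, Benjamini-Hochberg adjustment over each comparison, threshold 0.05), with the cross as covariate for age, and with edgeR 4.0.16 on the calls as an alternative. Values over mice were tested by exact permutation or sign-flip tests (scipy 1.17.1). The labels tie tissues to animals, and deviations of the same mouse correlated by -0.334 to 0.772 (median 0.202) over 15 pairs of tissues. The scripts were tested on simulated data. Named with values were the 2 highest and 2 lowest CpGs on each allele, CpGs over 10 points from their neighbours, CpG-alleles past the threshold for age or tissue, and the largest difference per tissue where none passed; a CpG named for an alternative or for the cross was chosen after its values were seen. The region, its comparison regions and the tests were chosen with earlier results of these data known. Replicates are mice. The alternatives were minimums of 20, 100 and 200 calls, pooled calls, a logit scale, other sets of CpGs, a replicate block, no cross covariate and leaving out each mouse.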

Additional observations from a re-analysis of the deposited data

Results flagged for a closer look

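In 4 of 34 groups of libraries, 1 library lay far from the others by Dixon's criterion for small groups, which chance alone meets in about 1 group in 20. The paternal level in cerebellum of young mouse 6 was 13.6%, where the other 5 mice had 2.57% to 5.53%. The maternal level in hypothalamus of young mouse 5 was 67.2%, where the other 6 mice had 85.6% to 88.8%. Maternal CpG 3 in hypothalamus of the same mouse was 56.4%. Maternal CpG 3 in its prefrontal cortex was 1.57%. Of these 4 values, 3 come from mouse 5.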

How the results depend on the processing

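Of 953 values under alternatives, 817 kept their direction and side of the threshold, 44 lost and 21 gained the threshold, 60 changed sign and 11 moved. The cause of these changes was not tested. Call depth, at most 7 mice and CpGs 8 to 10, which reached 50 calls in 0 libraries, limit what the data can show, and fits that leave out a mouse cannot reach the same smallest p. The labels pair the tissues of a mouse, and with the replicate block the age difference of maternal Impact in hippocampus was 0.405 points. The block changed no other call or sign.

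With a minimum of 100 calls the allelic difference was 76.8 points in lung, 81.8 in nucleus accumbens, 79.8 in hypothalamus, 84.8 in prefrontal cortex and 82.2 in cerebellum. All of these 5 lost the threshold, which the 2 to 6 mice left could not reach after adjustment. In limma 32 of 32 CpG tests of the allelic difference passed, beside 60.4% of all. Age over tissues was 3.12 maternal, -0.462 paternal and 2.72 in the difference. Maternal age in hippocampus was 7.75, and 1 of 36 CpG-alleles, maternal CpG 2 in lung, passed the age test, beside 2.88% of all. Against lung, maternal prefrontal cortex was 3.59, hypothalamus 2.15 and nucleus accumbens 1.96, and paternal hypothalamus 0.195. Impact minus Commd1 was -6.71 maternal and -7.73 in the difference, minus Plagl1 -5.86 maternal and -0.00861 paternal, minus Gnas -6.02 paternal and 14.0 in the difference, and minus H13 -3.40 paternal, which all passed except paternal Plagl1. With 200 calls the allelic difference was 85.9 in prefrontal cortex and 80.4 over tissues. Both fell short of a threshold that so few mice cannot reach (exact sign-flip p = 0.25 with 3 mice, and 0.125 over tissues). Of the CpG tests of that difference 6 of 7 passed in limma, beside 65.2% of all, and 9 of 19 CpG-alleles differed from the region's mean, beside 50.9% of all. With 20 calls the allelic difference in hippocampus was 77.2, the cross difference -3.74 maternal and 0.489 paternal, maternal age in hippocampus 3.97, and maternal cerebellum, hypothalamus and nucleus accumbens against lung -0.211, 0.213 and 1.02.

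With the CpGs that 80% of libraries cover, age over tissues was 4.13, -2.22 and 6.99, paternal age in lung 0.521, and maternal prefrontal cortex, hypothalamus and nucleus accumbens against lung 0.973, 1.92 and 0.797. With the first 7 CpGs, paternal age over tissues was -2.38, maternal age in hippocampus 0.872, paternal age in lung 0.278, and the same 3 areas 1.03, 1.03 and 0.976. Impact then differed from Commd1 by -8.93 maternal and -10.6 in the difference, from Plagl1 by -8.63 and -9.93, and from Gnas by -5.83 paternal, which all passed. With pooled calls, paternal age was -2.36 over tissues and 0.186 in lung, and the 3 areas 0.656, 0.375 and 0.390. Without the first and last CpG maternal nucleus accumbens was 0.0071. On the logit scale paternal age was 0.0631 in prefrontal cortex and 0.0183 in lung, the 3 areas were 0.284, 0.0118 and 0.160, and 2 of 95 CpG-alleles passed against lung, beside 11.8% of all. In edgeR paternal age was 0.157 and 0.0056 (log2) in prefrontal cortex and lung. Without the cross covariate maternal age in hippocampus was 0.564.

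Without the prefrontal cortex library of mouse 5, chosen after seeing the data like the setting of the first 7 CpGs, Impact differed from Commd1 by -5.63 maternal and -7.14 in the difference, from Plagl1 by -5.44 maternal, 3.39 paternal and -8.92 in the difference, from Gnas by -5.70 paternal and 8.31 in the difference, and from H13 by -2.86 paternal, which all passed. The Commd1 value in the difference was the same with that library, and it passed through the adjustment alone.

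Leaving out each mouse in turn gave ranges of 79.2 to 81.9 for the allelic difference in cerebellum, 3.51 to 5.58 (maternal), -3.08 to -1.45 (paternal) and 5.37 to 7.54 (difference) for age over tissues, and -0.845 to 3.46 for the maternal cross difference. Age ranged from -4.47 to 2.70 in maternal hippocampus, and on the paternal allele from -3.17 to 0.959 in prefrontal cortex, -3.35 to 0.135 in hypothalamus and -1.11 to 0.893 in lung. Against lung the ranges were -0.335 to 1.67 and -2.53 to 0.060 in cerebellum (maternal and paternal), -2.11 to 2.19 in maternal prefrontal cortex, -1.36 to 2.11 and -1.34 to 0.267 in hypothalamus, and -1.64 to 1.82 and -0.611 to 0.625 in nucleus accumbens. Impact CpG-alleles past the threshold numbered 0 to 2 for age, 0 to 2 against lung and 0 to 1 for age by tissue, and region-alleles 0 to 1 for age by tissue. The share of all features that passed in these fits is not given here. Nothing is therefore read from these counts, or from the single passes without mouse 1 or mouse 8 named above.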
